A study of Mus musculus with 2 samples.

Results

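Sodium channel beta subunits and the intracellular fibroblast growth factors that bind sodium channels were examined in dorsal root ganglion (DRG) neurons of immunized and control mice. The rule for membership was the gene symbol. The members were Scn2b, Scn3b and Scn4b, which encode beta subunits, and Fgf12, Fgf13 and Fgf14, which encode fibroblast growth factor homologous factors (FHFs). These 6 genes are represented by 14 of the 35034 RefSeq transcripts and belong to the 24411 genes listed in both libraries.

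RNA-seq was available from 2 libraries, named here the alum pool and the alum + KLH pool, each prepared from the DRG neurons of 10 pooled C57BL/6 males (C57BL/6J in the methods of the study) aged 6 to 8 weeks at purchase. Both groups received 50% alum, an aluminium salt adjuvant, by intraperitoneal injection on days 0 and 14, and the immunized group received it mixed with keyhole limpet hemocyanin (KLH, 100 µg), a mollusc protein foreign to the mouse. Thoracic and lumbar DRGs were taken 14 days after the second injection, digested, enriched for neurons on a BSA cushion and depleted of B lymphocytes with beads. The label of the control library calls it naïve as well as alum alone, and it was treated as alum-injected, the only control described for sequencing in the methods.

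Voltage-gated sodium channels open and inactivate during the action potential, and each pore-forming alpha subunit works with smaller partners. Beta subunits are single-pass membrane proteins with an extracellular immunoglobulin domain. Those encoded by Scn2b and Scn4b are joined to the alpha subunit by a disulfide bond, whereas that encoded by Scn3b binds without one, and the cytoplasmic tail of the Scn4b product can block open channels and has been linked to resurgent sodium current. FHFs resemble secreted fibroblast growth factors but stay in the cell, where they bind the C-terminal tail of the alpha subunit and change its inactivation. Each FHF gene has alternative first exons, so that proteins with different N termini share a common core, and the form known as A-type carries an N-terminal stretch that drives long-term inactivation of the channel.

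Most transcripts of the same gene differ here at the start of the coding region. The exceptions are NM_183064 and NM_001276420 of Fgf12, and NM_001083917 and NM_178227 of Scn3b, which share their starts. The first 60 coding bases of the transcripts follow, 5′ to 3′. They come from the GENCODE M21 transcripts (GRCm38) that its identifier table pairs with the deposited RefSeq identifiers. Capitals mark bases of the transcript's first coding exon and lower case marks bases of the next exon. Fgf13 lies on the minus strand of chromosome X, and the first coding exons of its transcripts are at chrX:59166013-59166040 for NM_001290415, chrX:59133877-59134063 for NM_010200 and chrX:59567140-59567151 for NM_001290414.
Fgf13 NM_001290415: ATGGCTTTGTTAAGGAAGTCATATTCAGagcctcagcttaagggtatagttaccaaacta
Fgf13 NM_010200: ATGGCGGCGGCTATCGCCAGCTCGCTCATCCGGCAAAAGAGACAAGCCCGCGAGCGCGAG
Fgf13 NM_001290414: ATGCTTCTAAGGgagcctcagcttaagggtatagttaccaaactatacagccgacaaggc

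Fgf12 lies on the minus strand of chromosome 16. The first coding exon is at chr16:28752834-28752846 for NM_010199, at chr16:28444993-28445191 for NM_183064 and NM_001276420, which share it, and at chr16:28564575-28564665 for NM_001276419. The forms are shown because nearly all of the signal of the gene was assigned to the first of them.
Fgf12 NM_010199: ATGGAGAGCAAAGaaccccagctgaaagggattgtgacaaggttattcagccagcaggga
Fgf12 NM_183064 and NM_001276420: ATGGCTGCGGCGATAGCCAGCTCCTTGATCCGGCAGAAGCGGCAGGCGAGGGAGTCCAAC
Fgf12 NM_001276419: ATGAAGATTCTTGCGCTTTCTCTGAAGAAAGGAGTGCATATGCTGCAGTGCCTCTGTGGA

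Fgf14 lies on the minus strand of chromosome 14, with first coding exons at chr14:124676510-124676717 for NM_207667 and chr14:124192329-124192521 for NM_010201. Both are given because the division of its low signal between them differed between the pools.
Fgf14 NM_207667: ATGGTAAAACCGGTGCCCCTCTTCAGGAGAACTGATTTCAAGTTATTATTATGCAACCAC
Fgf14 NM_010201: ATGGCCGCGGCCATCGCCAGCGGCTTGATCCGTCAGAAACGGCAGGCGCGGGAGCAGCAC

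The starts of NM_183064 (Fgf12), NM_010200 (Fgf13) and NM_010201 (Fgf14) are alike across genes. Compared base by base without gaps, 43 of the 60 bases were identical between Fgf12 and Fgf13, 48 between Fgf12 and Fgf14, and 41 between Fgf13 and Fgf14. These starts are called A-type here, and all other pairs of starts that differ between these transcripts had 36 or fewer identical bases. The 3 genes also share their exon structure, and in the most abundant transcript of each, coding exons 2 to 4 have 111, 104 and 199 bases. Over these 414 bases identity was 72.0% between Fgf12 and Fgf13, 75.1% between Fgf12 and Fgf14, and 72.2% between Fgf13 and Fgf14.

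The 3 beta subunit genes all lie on the plus strand of chromosome 9. Scn2b (45117881 to 45130068) and Scn4b (45138395 to 45154152) are separated by 8.33 kb, and Scn3b lies apart from them (40269217 to 40291618). In a global alignment of their coding sequences, 58.6% to 61.1% of the bases aligned without a gap were identical. The coding starts are shown for the single transcript of Scn2b and of Scn4b, at chr9:45118024-45118093 and chr9:45139042-45139102, and for the forms of Scn3b, whose minor form begins translation further downstream. The major coding start of Scn3b is at chr9:40269993-40270047 and is shared by NM_001083917 and NM_178227, and that of NM_001286614 is at chr9:40277133-40277231.
Scn2b NM_001014761: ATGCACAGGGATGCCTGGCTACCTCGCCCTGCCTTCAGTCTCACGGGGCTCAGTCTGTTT
Scn4b NM_001013390: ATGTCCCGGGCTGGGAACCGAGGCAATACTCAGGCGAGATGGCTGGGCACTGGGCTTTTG
Scn3b NM_001083917 and NM_178227: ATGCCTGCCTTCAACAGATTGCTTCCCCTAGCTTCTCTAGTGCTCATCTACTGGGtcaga
Scn3b NM_001286614: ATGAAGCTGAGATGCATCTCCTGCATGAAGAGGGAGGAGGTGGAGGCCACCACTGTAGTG

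Values are in TPM, a transcript abundance corrected for length and scaled to the same total in every library, which allows levels of different genes to be compared. Transcripts were summed per gene, and 3 TPM, the limit used in the study, was taken as the level of detection. Wherever a pair of values is given, the first belongs to the alum pool and the second to the alum + KLH pool. Each group is a single library, so the spread between mice is not known and no test was possible. TPM does not keep the number of reads behind each value. In pooled tissue of this kind, fewer cells of a type and less RNA per cell cannot be told apart.

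The neuronal label was checked against marker genes. The 8 pan-neuronal genes all passed 3 TPM, and their sums were 9377 and 9458 TPM. Glial RNA was also present, with 5 of 8 Schwann cell genes above 3 TPM in both pools (sums of 2174 and 2134 TPM) and 7 of 7 satellite glia genes (1496 and 1381 TPM). None of 6 macrophage, 5 skeletal muscle or 5 B lymphocyte genes passed 3 TPM, with sums of 6.10 and 5.42, of 0.333 and 0.193, and of 0.754 and 0.234 TPM, and the B lymphocyte genes Cd79b and Blk were listed at 0. Of 5 endothelial genes 1 passed in both pools (sums of 10.2 and 7.24 TPM), and of 5 fibroblast genes 3 did (85.4 and 85.7 TPM). The part of non-neuronal cells in the values of the 6 genes was not tested.

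All 6 genes were above 3 TPM in both pools. Their levels spanned from 3.77 TPM for Fgf14 to 2138 TPM for Fgf13, and their order was the same in both libraries. Fgf13 was followed by Fgf12, Scn4b, Scn3b, Scn2b and Fgf14. The closest neighbours in this order were Scn4b and Scn3b, whose levels differed 2.07-fold in the alum pool and 2.11-fold in the alum + KLH pool. No single gene differed as much between the pools, where the widest gap was 1.08-fold, for Fgf12.

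**Figure D1:**
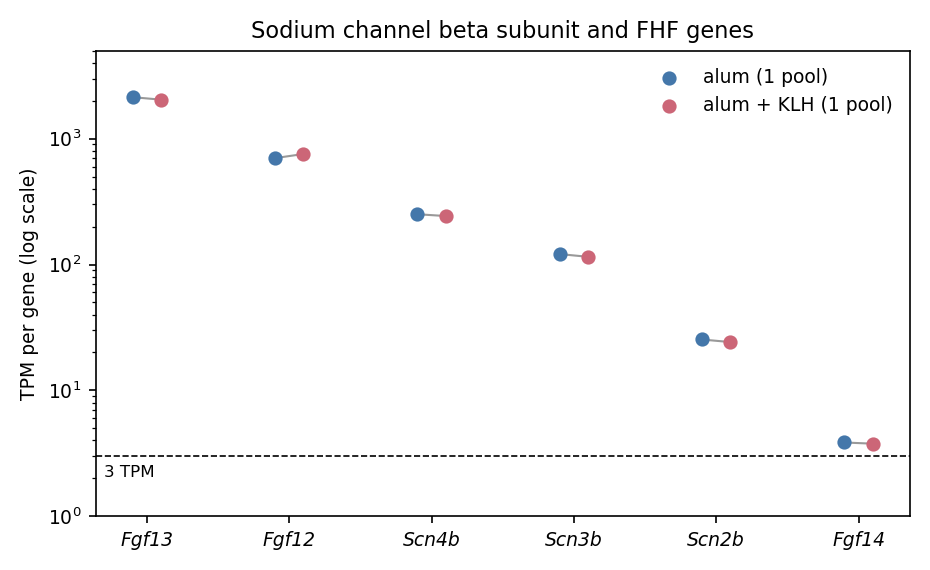
TPM of each gene in the alum pool (blue) and the alum + KLH pool (red), on a log scale, with 1 point per pooled library, no error bars and a dashed line at 3 TPM. The genes run from Fgf13 at 2138 and 2042 TPM down to Fgf14 at 3.85 and 3.77 TPM, and the points of a gene lie close together.

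Fgf13 was among the most abundant messages of the preparation. Its levels were 2138 and 2042 TPM, and only 30 and 31 of the 24411 genes were higher. Fgf12 was at 700.7 and 756.2 TPM, exceeded by 0.811% and 0.746% of genes. Fgf14, known as a cerebellar ataxia gene, was at 3.85 and 3.77 TPM, just above the detection threshold and exceeded by 44.4% and 44.1% of genes.

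The level of Fgf13 was thus 3.05 and 2.70 times that of Fgf12, and 555.2 and 542.0 times that of Fgf14. Fgf13 held 75.2% and 72.9% of the summed TPM of these 3 FHF genes, and Fgf12 held 24.6% and 27.0%. Fgf14 contributed 0.135% and 0.134%. The remaining FHF gene, Fgf11, was at 17.9 and 19.4 TPM, between Fgf12 and Fgf14.

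Among the beta subunits, Scn4b had the highest level of the 3, at 251.0 and 242.8 TPM. Scn3b was at 121.1 and 115.1 TPM. Scn2b was the lowest at 25.4 and 24.2 TPM. Scn4b made up 63.2% and 63.5% of the sum of these 3 genes, Scn3b 30.5% and 30.1%, and Scn2b 6.38% and 6.33%, so their proportions moved by less than 1 percentage point between the pools. Scn4b was exceeded by 3.42% and 3.56% of all genes, and Scn2b by 23.3% and 23.6%.

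Levels of the partners were set beside those of the alpha subunit genes. Of the 10 alpha subunit genes in the files, 8 were above 3 TPM in both pools, and all 10 together reached 1993 and 1955 TPM. This sum includes Scn7a, which encodes an atypical channel, at 693.6 and 694.5 TPM, and the ratios below were not computed without it. The 3 beta subunit genes summed to 397.5 and 382.1 TPM, or 0.199 and 0.195 times the alpha sum. The 3 FHF genes summed to 2843 and 2802 TPM, 1.43 times the alpha sum in each pool. By this measure of RNA, FHF messages were more abundant than alpha subunit messages and beta subunit messages were less abundant, and protein levels were not measured.

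As a description of likeness in level, the nearest genes were found by the distance of log2(TPM + 1) over the 2 pools. Fgf13 lay closest to the cytoskeletal actin gene Actg1 (2186 and 2080 TPM) and the translation elongation factor gene Eef1a1 (2165 and 1968 TPM). Fgf12 lay closest to the ribosomal protein gene Rps27a (706.4 and 756.7 TPM) and to Etnk1 (711.0 and 741.8 TPM). For Scn4b the nearest were Dhx15 and Mfsd6, for Scn3b Ndufb10 and 1810058I24Rik, for Scn2b Alkbh8 and 9930021J03Rik, and for Fgf14 Pcdhb7 and Col23a1, all within 0.02 log2 units. With 2 libraries this likeness describes a level and not a shared pattern across conditions.

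Between the pools the 6 genes differed little. Differences are given as the log2 ratio of the alum + KLH pool over the alum pool after 1 TPM was added to each level, which understates changes of low genes. The values were -0.07 for Fgf13, 0.11 for Fgf12 and -0.03 for Fgf14, and -0.05, -0.07 and -0.07 for Scn4b, Scn3b and Scn2b. Thus 5 of the 6 were lower and 1, Fgf12, was higher in the alum + KLH pool. In percent of the alum pool, Fgf12 was 7.92% higher and Scn3b, with the widest gap among the lower genes, was 4.95% lower.

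Each of these differences was smaller than the scatter of other genes at a similar level. The SD of the log2 ratio was 0.16 over the 2155 genes with a mean of at least 100 TPM, 0.27 over the 6144 genes from 10 to 100 TPM and 0.52 over the 3083 genes from 3 to 10 TPM. The first of these applies to Fgf13, Fgf12, Scn4b and Scn3b, the second to Scn2b and the last to Fgf14. The median log2 ratio was -0.06 over the 6 genes and -0.02 over the 11648 genes above 3 TPM in at least 1 pool.

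A gene was counted as higher where its level plus 1 TPM was at least 25% above that of the alum pool, and as lower where it was at least 20% below, which is the same distance on the log2 scale. By this limit 0 of the 6 genes differed, against 7.68% of the 11648 genes (2.29% higher and 5.39% lower). Among genes of at least 100 TPM the share was 2.27%, with 0 of the 4 members at this level. At a fold of 2 the count was again 0 of 6, against 1.64% of all genes. Over protein-coding transcripts alone, which left 10791 genes, the shares for the narrower and the wider limit were 5.82% and 0.158%. A count of 0 among 6 genes is therefore near the background.

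**Figure D2:**
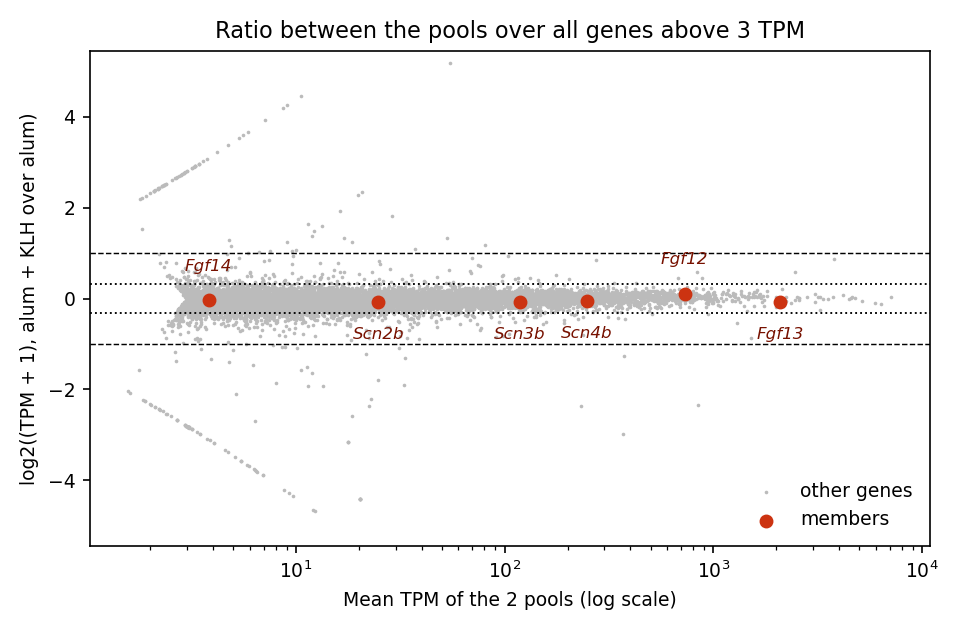
The log2 ratio of the alum + KLH pool over the alum pool with 1 TPM added to each level (vertical axis) against the mean TPM of the pools (log scale), with a grey point for each of 11648 genes above 3 TPM in at least 1 pool and red points for the 6 genes. Dotted lines mark 25% higher and 20% lower and dashed lines 2-fold, and the red points lie between -0.07 and 0.11, inside the dotted lines.

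The transcripts behind these sums were less even. Of the 14 transcripts, 7 were above 3 TPM in both pools, 3 in 1 pool only, and 4 in neither. Scn2b and Scn4b have a single transcript each in the files, and the other 4 genes have several. The quantification program, kallisto, assigns a read that fits several transcripts in proportions estimated from all reads, so a transcript can change while its gene does not.

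Fgf13 was represented almost entirely by NM_001290415, at 2132 and 2039 TPM, which is 99.7% and 99.8% of the gene. Its first coding exon contributes 28 bases and lies 34.1 kb upstream of the shared second coding exon. The A-type transcript NM_010200, whose first coding exon of 187 bases lies 1.93 kb from the same exon, was at 5.47 and 2.84 TPM, above 3 TPM only in the alum pool. The log2 ratio was -0.75, beyond the SD of 0.62 of the 4391 transcripts with 3 to 10 TPM. NM_001290414, which starts 435.2 kb upstream, was at 0.955 and 0.616 TPM.

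Fgf12 showed the same concentration on 1 form that is not A-type. NM_010199, whose first coding exon contributes 13 bases and lies 354.4 kb upstream of the second, was at 693.1 and 749.0 TPM, or 98.9% and 99.1% of the gene. The A-type starts of NM_183064 and NM_001276420 together held 6.70 and 6.41 TPM, most of it in NM_001276420 (5.71 and 5.99 TPM), a short coding form that ends after 2 exons. NM_183064, with the A-type start and the full set of coding exons, was at 0.987 and 0.413 TPM. NM_001276419 was at 0.858 and 0.747 TPM.

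Such concentration was seen in a minority of genes. Among 3392 genes with several transcripts and more than 3 TPM in both pools, 23.8% had 1 transcript with at least 95% of the gene in each pool. Of the 4 such genes examined here, Fgf12 and Fgf13 met this limit. Scn3b met it only when NM_001083917 and NM_178227, which GENCODE pairs with 1 transcript, were added, at 99.7% and 95.9%. Summed over the 3 FHF genes, A-type transcripts held 12.4 of 2843 TPM and 10.6 of 2802 TPM, or 0.435% and 0.377%. Of these sums, 5.71 and 5.99 TPM were those of NM_001276420 of Fgf12. It shares its A-type start with NM_183064 and is told apart by a longer second exon. Whether the reads assigned to NM_001276420 covered the A-type start is not known.

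**Figure D3:**
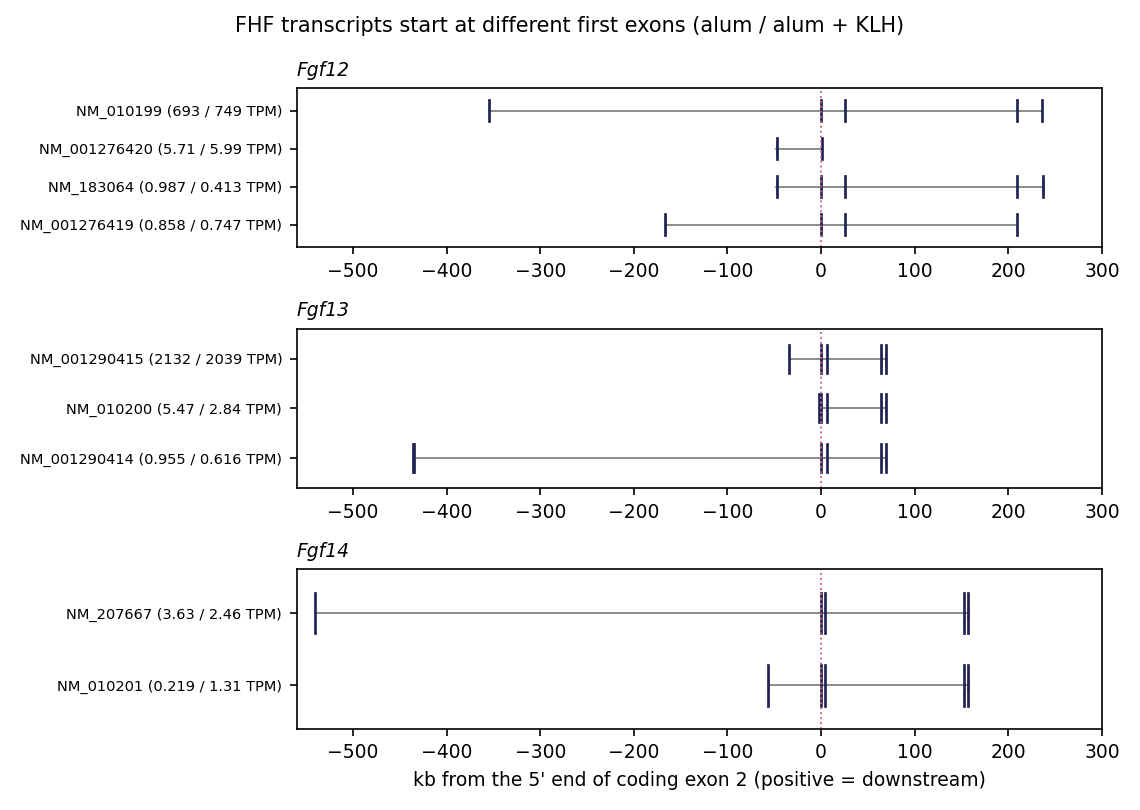
Exons (vertical ticks, not to width) of the transcripts of Fgf12, Fgf13 and Fgf14 by distance in kb from the 5′ end of the second coding exon, with positive values downstream, and with TPM in the alum pool and then the alum + KLH pool beside each identifier. The first exons differ between most transcripts of a gene, while most downstream exons coincide. In Fgf12, NM_183064 and NM_001276420 share a first coding exon, and NM_001276420 ends in a longer second exon. The GENCODE model of NM_001276419 lacks the last exon of NM_010199, but its coding end is not annotated, so the model may be incomplete there. NM_010199 and NM_001290415 hold nearly all of the signal of Fgf12 and Fgf13.

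Fgf14 differed from Fgf12 and Fgf13 in its division between transcripts. NM_207667, whose first coding exon lies 540.2 kb upstream of the second, was at 3.63 and 2.46 TPM. The A-type transcript NM_010201 was at 0.219 and 1.31 TPM. The share of NM_207667 was therefore 94.3% and 65.3%, a difference of 29.1 percentage points, while the sum of the gene was 3.85 and 3.77 TPM. Fgf11, which is not a member, was also divided, and its transcript NM_001291104 held 91.9% and 84.1% of the gene.

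A shift of at least 20 points in some transcript was found in 8.93% of the 3392 genes with several transcripts, and in 1 of the 4 examined here. These values lie near the detection threshold, where the SD of the log2 ratio over transcripts was 0.62. The log2 ratio of -0.42 for NM_207667 was smaller than this SD. Transcripts were also compared by their words of 31 bases, and 573 words of NM_010201 and 1001 of NM_207667 are not in the other form.

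Scn3b was divided between NM_001083917, at 83.6 and 78.7 TPM, and NM_178227, at 37.2 and 31.7 TPM. Added for their shared GENCODE transcript, they reached 120.8 and 110.4 TPM. The third transcript, NM_001286614, which encodes a protein with a later start (525 coding bases in place of 645), was at 0.311 and 4.67 TPM.

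NM_001286614 thus passed 3 TPM only in the alum + KLH pool, with a log2 ratio of 2.11 and a share of the gene of 0.257% and 4.05%. Only 29 of its 4060 distinct 31-base words, or 0.714%, are not in the GENCODE transcript paired with both NM_001083917 and NM_178227. The sequences that the authors used for those transcripts were not compared. NM_001286614 was the only transcript at least 2-fold higher among the 10 above 3 TPM in at least 1 pool, and 0 were 2-fold lower. Of all 14215 such transcripts, 1.86% were at least 2-fold higher and 2.79% lower. By the limit of 25% and 20%, 1 was higher and 2 were lower (NM_010200 of Fgf13 and NM_207667 of Fgf14), against 6.77% and 10.9% of all transcripts. Each of these transcripts was above 3 TPM only in the pool where it was high, so the filter kept it through that value. The 7 transcripts above 3 TPM in both pools stayed within the limit. The counts therefore cannot be read as a result about these genes.

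**Figure D4:**
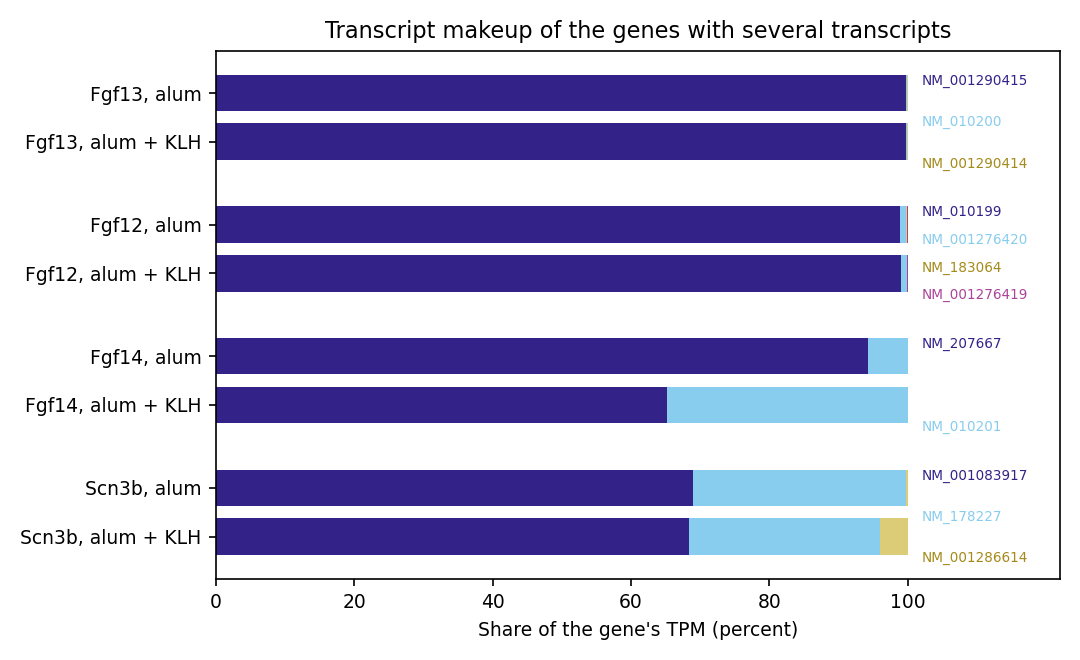
Share of the TPM of Fgf13, Fgf12, Fgf14 and Scn3b held by each RefSeq transcript, in percent, with 1 bar per pooled library and transcript identifiers printed in the colour of their segment. NM_001290415 fills 99.7% and 99.8% of the Fgf13 bars and NM_010199 98.9% and 99.1% of the Fgf12 bars, whereas NM_207667 fills 94.3% and 65.3% of the Fgf14 bars.

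The 6 genes had 0 words of 31 bases in common with each other. Words shared with annotated transcripts of other genes made up 2.63% of Scn2b, 0% of Scn4b and at most 0.468% of an Scn3b transcript. They made up at most 0.524% of an Fgf12 transcript, 1.88% of an Fgf13 transcript and 5.21% of an Fgf14 transcript, the last all shared with the gene Gm28932.

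Partner genes that act on the same channels were read from lists for each role. Among the alpha subunits, Scn7a, which encodes an atypical channel that depolarization does not open, was at 693.6 and 694.5 TPM, Scn9a at 415.7 and 422.6 TPM, Scn10a at 300.5 and 282.0 TPM and Scn8a, the main channel of nodes of Ranvier, at 50.1 and 47.3 TPM. None of the 8 detected alpha subunit genes passed the limit of 25% and 20%, and their median log2 ratio was -0.04, with 4 lower and 4 higher. The ratios of these 8 genes ran from -0.18 for Scn11a (374.3 and 330.2 TPM) to 0.20 for Scn1a (140.6 and 161.4 TPM). These extremes lay beyond the SD of 0.16 over genes of at least 100 TPM. Of 2 further genes of the beta subunit and FHF families, both were above 3 TPM and 0 passed this limit.

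Proteins that anchor sodium channels at the axon initial segment and node were detected for 6 of 7 genes. Ank2 was at 582.1 and 541.7 TPM and Ank3, which encodes ankyrin-G, at 109.6 and 99.7 TPM, while Sptbn4, which encodes the beta-IV spectrin of these sites, was below the threshold at 1.23 and 0.780 TPM. Of the 6 detected genes, 5 were lower and 1 higher in the alum + KLH pool, with log2 ratios from -0.13 to 0.01, and 0 passed the limit.

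Beta subunits are cut by the secretase BACE1 and then by gamma-secretase. All 11 genes of a list of such proteases and their cofactors were above 3 TPM in both pools, led by Bace1 at 118.4 and 108.1 TPM and the alpha-secretase gene Adam10 at 94.1 and 96.1 TPM. The log2 ratios of the 11 genes ran from -0.15 to 0.15, and 0 passed the limit.

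All 10 genes of channel trafficking and modification were likewise detected. The calmodulin gene Calm2 was at 7046 and 7219 TPM, the annexin partner gene S100a10 at 1136 and 1008 TPM and the ubiquitin ligase gene Nedd4l at 132.8 and 119.9 TPM. The median log2 ratio was -0.14, with 9 lower and 1 higher, and 0 passed the limit.

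The scaffold encoded by Mapk8ip2, a known binding partner of FHFs that assembles JNK and p38 kinases, passed the limit. Its level of 30.7 and 22.7 TPM gave a log2 ratio of -0.42 beside an SD of 0.27 over genes of 10 to 100 TPM. On summed TPM it was the only one of the 5 detected genes of its list past the limit, in a direction in which 5.39% of all genes passed, and on the highest transcript of each gene 3 were at least 20% lower. The related scaffold gene Mapk8ip1 was at 42.8 and 36.7 TPM, and the JNK genes Mapk8, Mapk9 and Mapk10 had log2 ratios of 0.00, 0.02 and -0.01. The p38 gene Mapk13 was at 0.0484 and 0.125 TPM.

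**Figure D5:**
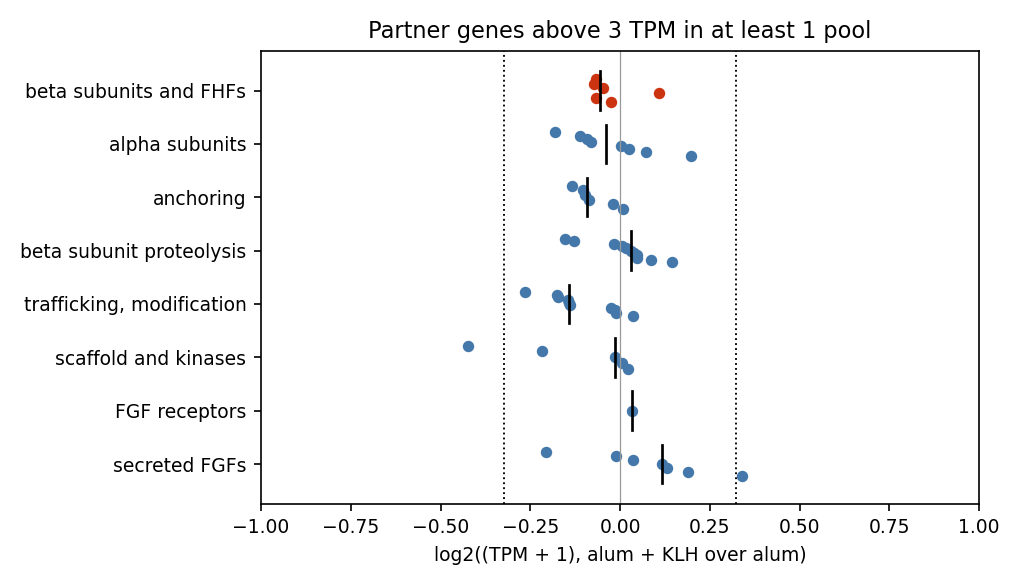
The log2 ratio of the alum + KLH pool over the alum pool, with 1 TPM added to each level, for each gene above 3 TPM in at least 1 pool (points), by list, with black bars at the list medians and dotted lines at 25% higher and 20% lower. The 6 genes (red) span -0.07 to 0.11, and the points outside the dotted lines are Mapk8ip2 at -0.42 and the secreted factor gene Fgf5 at 0.34.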

How the data were processed

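The authors deposited TPM for each RefSeq transcript. They sequenced stranded mRNA libraries of pooled DRG neurons as paired-end reads of 75 bases, trimmed them with cutadapt and quantified transcripts with kallisto on mm10 (tool versions are not given in the sources used here). The methods state at least 60 M reads per sample. The files hold no counts, so the reads behind each value are not known and no interval or detection floor was computed. The transcript lengths used by the authors are not in the files either, and a length that differs from the real message changes its TPM.

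TPM was summed per symbol, and pools were compared by log2 ratios after adding 1 TPM, beside the SD over all genes of 3 to 10, 10 to 100 and at least 100 TPM. With 1 library per group no test was made. All 14 transcripts of the 6 genes matched 13 transcripts of GENCODE M21 on GRCm38, the assembly of mm10, from which positions, sequences and 31-base words were read. The starts called A-type share at least 40 of 60 bases with NM_010200. Named genes are the 6 genes, genes of the role lists above 3 TPM, marker lists and the 2 genes nearest in level to each member, and others were chosen after their values were seen. The members and lists were chosen with earlier results of these data known, and the A-type grouping and the 31-base word comparison were added after the values were seen. Calculations used Python 3.11.15, numpy 2.4.6, pandas 2.3.3, Biopython 1.88 and matplotlib 3.10.9.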

Additional observations from a re-analysis of the deposited data

How the results depend on the processing

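The log2 ratios of the 6 genes were recomputed with pseudocounts of 0.1 and 0.5 TPM, after rescaling the pools by their median ratio (0.987) or relative to Hprt (1.06 times its alum level in the other pool), on the highest transcript of each gene and without noncoding rows. In all 36 recomputed values the sign was kept and the value moved by less than the SD of genes at a similar level. Some of these outcomes were fixed in advance. A pseudocount cannot change a sign, and the highest transcript repeats the sum for Scn2b and Scn4b, which have 1 transcript each. The ratio of Fgf12 ranged from 0.03 to 0.13 and that of Fgf13 from -0.15 to -0.05, and the summed ratio of the FHF genes ranged from -0.11 to 0.00. Fgf14 ranged from -0.42, on its highest transcript, to -0.01, and this made 1 of the 6 genes at least 20% lower where the sums gave 0. On the highest transcript, 3 genes of the FHF-binding scaffold list in place of 1 and 1 gene of the beta subunit proteolysis list in place of 0 were at least 20% lower. Relative to Hprt, 1 trafficking gene in place of 0 was at least 20% lower, 0 secreted FGF genes in place of 1 were at least 25% higher, and 1102 of all genes in place of 628 were at least 20% lower.

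The counts over all genes depended on the filter. Above 10 TPM, 110 genes were at least 25% higher and 291 lower, and 25 and 49 passed 2-fold. Without a filter, 530 were at least 25% higher and 1059 lower, where the reported counts were 267 and 628. Without noncoding rows, 140 were at least 25% higher, and 4 and 13 were 2-fold higher and lower, where the reported counts were 81 and 110. No paired analysis was possible because each group has 1 library, and for the same reason no replicate could be left out.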

Other observations

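The secreted relatives of the FHFs and their receptors were also read from lists. Of 18 secreted FGF genes in the files, 6 were above 3 TPM in both pools. Fgf1, a broadly acting ligand that lacks a signal peptide, was at 890.3 TPM in the first pool (alum) and 975.3 TPM in the second (alum + KLH), a level above that of Fgf12. Fgf9 was at 28.1 and 30.5 TPM, Fgf2 at 19.9 and 19.7 TPM and Fgf18 at 6.13 and 7.13 TPM. Fgf5, at 4.22 and 5.60 TPM, was the only gene of the list at least 25% higher, with a log2 ratio of 0.34 beside an SD of 0.52 at this level. Fgf3, Fgf6 and Fgf17 were listed at 0 in both pools. Of 5 receptor genes only Fgfr1 was detected, at 38.0 and 38.9 TPM, while Fgfr2 was at 0.911 and 0.945 TPM, Fgfr3 at 2.53 and 2.13 TPM and Fgfrl1 at 0.431 and 0.486 TPM, and Fgfr4 was listed at 0.

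Markers of the neuronal classes were compared in the same way. All 6 markers of non-peptidergic (NP) neurons were lower in the alum + KLH pool, with a median log2 ratio of -0.24 and sums of 778.1 and 682.2 TPM. Of these, 2, Sst and Nppb, were at least 20% lower, as were 5.39% of all genes. The share was 10.3% among genes from 3 to 10 TPM, the level of Sst, and 3.3% from 10 to 100 TPM, that of Nppb. Among the 8 pan-neuronal genes 6 were also lower, with a median of -0.08. All 4 markers of tyrosine hydroxylase (TH) neurons were lower, with a median of -0.19. Of the 6 detected neurofilament (NF) markers 3 were lower and 3 higher. Spp1 (196.1 and 352.4 TPM) and Pvalb (80.4 and 114.3 TPM) were at least 25% higher, as were 2.29% of all genes. That share was 0.789% among genes of at least 100 TPM, the level of Spp1, and 1.24% from 10 to 100 TPM, that of Pvalb. Of the 5 peptidergic (PEP) markers 3 were lower and 2 higher, with a median of -0.05. These lists were read with earlier results of these data known, and the differences have no replicate check.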
